A study of Mus musculus with 6 samples.

Results

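The 40 genes described here encode assembly factors of the large (60S) ribosomal subunit, proteins that build the subunit and leave it before it translates. They were chosen by gene symbol from the 41079 genes listed in the TPM table deposited by the authors, a rule that uses no measured value. The list itself was chosen with earlier results of these data known. From the same 6 libraries the study had already reported upregulation of ribosome biogenesis genes. TPM, a measure of transcript abundance, divides the reads of a gene by its length and scales each library to the same total, so that it can be read as a share of the transcripts. RNA was taken from D10 cells, a cloned mouse helper T cell line labelled as CD4+ and of lymph node origin, from 3 replicates kept for 24 h at 26°C (cold-acclimated T cells) and 3 kept at 37°C for the same time (non-acclimated T cells). All 6 libraries were made from poly(A)+ RNA with a strand-specific kit. The groups shared 1 cloned line and differed in temperature. No agent or genetic change was named for either group. The growth medium is given as RPMI in the labels and as DMEM with IL-2 in the study's methods. RNA came from old and new extraction batches that the labels do not assign to libraries, so that batch and library cannot be told apart.

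The large subunit is assembled in the nucleolus around the precursor of the 28S and 5.8S rRNA, to which the 5S rRNA is added as a separate particle. Early factors fold the precursor, GTPases and AAA ATPases drive later steps and release factors that have done their work, and nucleases and kinases remove the internal transcribed spacer 2 (ITS2) that separates the 5.8S from the 28S rRNA. An export adaptor then carries the particle to the cytoplasm, where the last placeholders are exchanged for ribosomal proteins. Growing T cells are known for high ribosome production, and many genes of this pathway carry the motif CACGTG, which the transcription factor Myc binds.

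The label of the cells was checked against T cell markers. Cd3e, a chain of the T cell receptor complex, had 476 to 874 TPM in the 6 libraries, and Gata3, a factor of type 2 helper cells, had 387 to 751 TPM. Cd4, by contrast, had 1.09, 0.0351 and 310 TPM at 37°C and 1.30, 0.352 and 328 TPM at 26°C, in the order of replicates 1, 2 and 3. The 4 libraries of replicates 1 and 2 thus went against the CD4+ label, in both conditions alike, whereas both libraries of replicate 3 carried Cd4. Trac, the constant part of the T cell receptor alpha chain, was lowest in replicate 2, with 15.0 TPM at 37°C and 12.8 TPM at 26°C against 129 to 207 TPM in the other libraries. The sum of 10 T cell markers was 3291 to 4677 TPM in non-acclimated and 4144 to 4933 TPM in cold-acclimated libraries, and 9 of them reached 1 TPM in any library. Of 8 B cell markers, 1 reached 1 TPM in any library and the sum was at most 3.62 TPM, with 2 of them listed at 0. The sum of 8 macrophage and monocyte markers was 3.46 to 16.7 TPM in non-acclimated and 2.69 to 21.4 TPM in cold-acclimated libraries, and that of 5 erythroid markers was 80.9 to 486 and 61.4 to 475 TPM. The part of these differences in the results was not tested, and results are given with and without replicate 3 where it matters. Reads per gene could be worked back from the TPM, and the libraries held 16899628 to 31290854 reads on genes.

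All 40 assembly factors passed the filter for testing, a mean of at least 1 TPM over the 6 libraries, which 12227 genes met. Their mean levels lay between 18.4 and 438 TPM, and each rested on 381 to 13197 reads in a library. Together they made up 0.227%, 0.342% and 0.490% of all TPM in the non-acclimated libraries of replicates 1, 2 and 3, and 0.563%, 0.533% and 0.574% in the cold-acclimated libraries. The 3 cold-acclimated sums lay above the 3 non-acclimated sums without overlap. Within the replicates, the summed TPM was 2.49-, 1.56- and 1.17-fold higher at 26°C. In bulk RNA, more transcripts in every cell and more cells with many transcripts cannot be told apart.

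**Figure D1:**
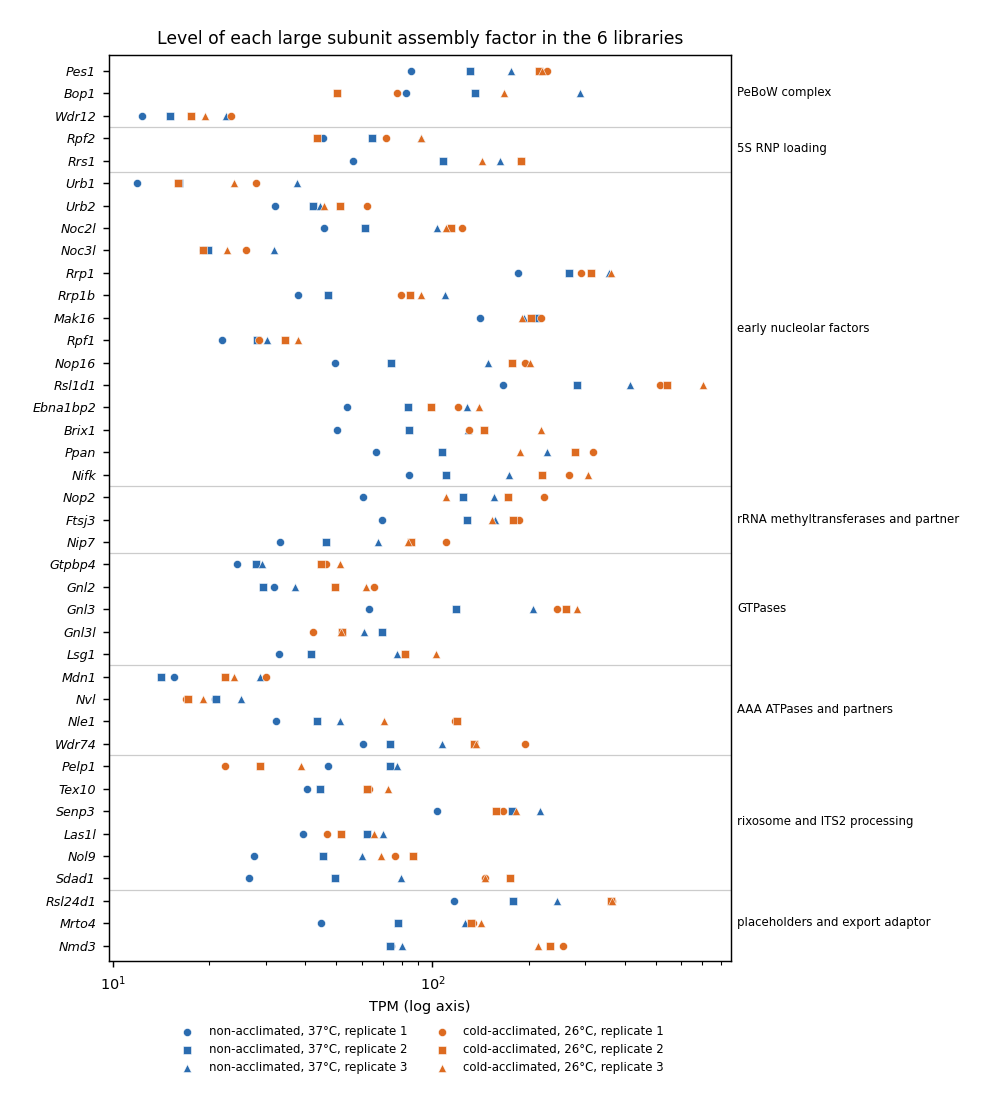
TPM (log axis) of each of the 40 assembly factors in the 6 libraries, with 1 symbol per library (blue for 37°C, orange for 26°C, and circle, square and triangle for replicates 1, 2 and 3) and genes grouped by role. The blue symbols spread along each row, mostly from replicate 1 to replicate 3, whereas the orange symbols of most genes sit close together near or above the highest blue one; Pelp1, Gnl3l and Nvl have all 3 orange symbols to the left.

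The conditions were compared by limma on log2(TPM + 1) with no replicate term. Calls required an adjusted p (Benjamini-Hochberg, over all 12227 genes) under 0.05 together with a log2 fold change of 1 or more in either direction. Of the 40 assembly factors, limma called 5 upregulated, against 2.63% of all tested genes, and 1 downregulated, against 16.0% of all tested genes. The upregulated genes were Nmd3, Sdad1, Nle1, Nifk and Rsl24d1, and the downregulated gene was Pelp1. By the adjusted p alone, 7 were higher and 1 was lower with limma adjusted p under 0.05, against 3.30% and 17.4% of all tested genes.

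The number called depended on how the libraries were scaled. Over all tested genes, the log2 fold change had a median of -0.34 on the deposited scale. Median of ratios scaling, which divides a library by its typical ratio to an average library, moved this median to 0.033, a shift of 0.37. After this scaling limma called 18 assembly factors upregulated, against 6.87% of all tested genes, and 0 downregulated, against 8.60%. At an unadjusted p under 0.05, 31 assembly factors were higher in that fit, against 18.6% of all tested genes, and 1, Pelp1, was lower, against 18.2%. The 5 genes called with TPM as deposited were among the 18, and the other 13 were Brix1, Gnl2, Gnl3, Gtpbp4, Lsg1, Mrto4, Nip7, Noc2l, Nol9, Nop16, Pes1, Rsl1d1 and Wdr74. With the replicate number as a block, limma called 8 upregulated, against 3.75%, and 1 downregulated, against 21.9%. Block and scaling together gave 19 upregulated, against 9.23%, and 0 downregulated, against 12.4%. With voom on the recovered reads, 17 were upregulated, against 6.27%, and 0 downregulated, against 9.18%. When genes with low values were kept in the test, limma called 1, Nmd3, against 0.868%, and 0 downregulated, against 5.29%.

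Measured from the median of all tested genes, which removes the difference in scaling, the median log2 fold change of the 40 genes was 1.04 on the deposited scale and 1.08 after median of ratios scaling. Only Pelp1 and Bop1 lay below the median of all genes, so that 38 of 40 lay above it, against 50.0% of all tested genes by construction. Values of the conditions did not overlap for 22 of the 40 genes. Of these, 19 were higher at 26°C, against 9.69% of all tested genes, and 3 were lower, namely Pelp1, Gnl3l and Nvl, against 31.4%. After median of ratios scaling 31 were higher without overlap, against 21.0%, and 1 was lower, against 19.8%. In the 3 replicates, 23 genes were higher at 26°C each time, against 18.2% of all tested genes, and 4 were lower each time, against 47.9%.

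**Figure D2:**
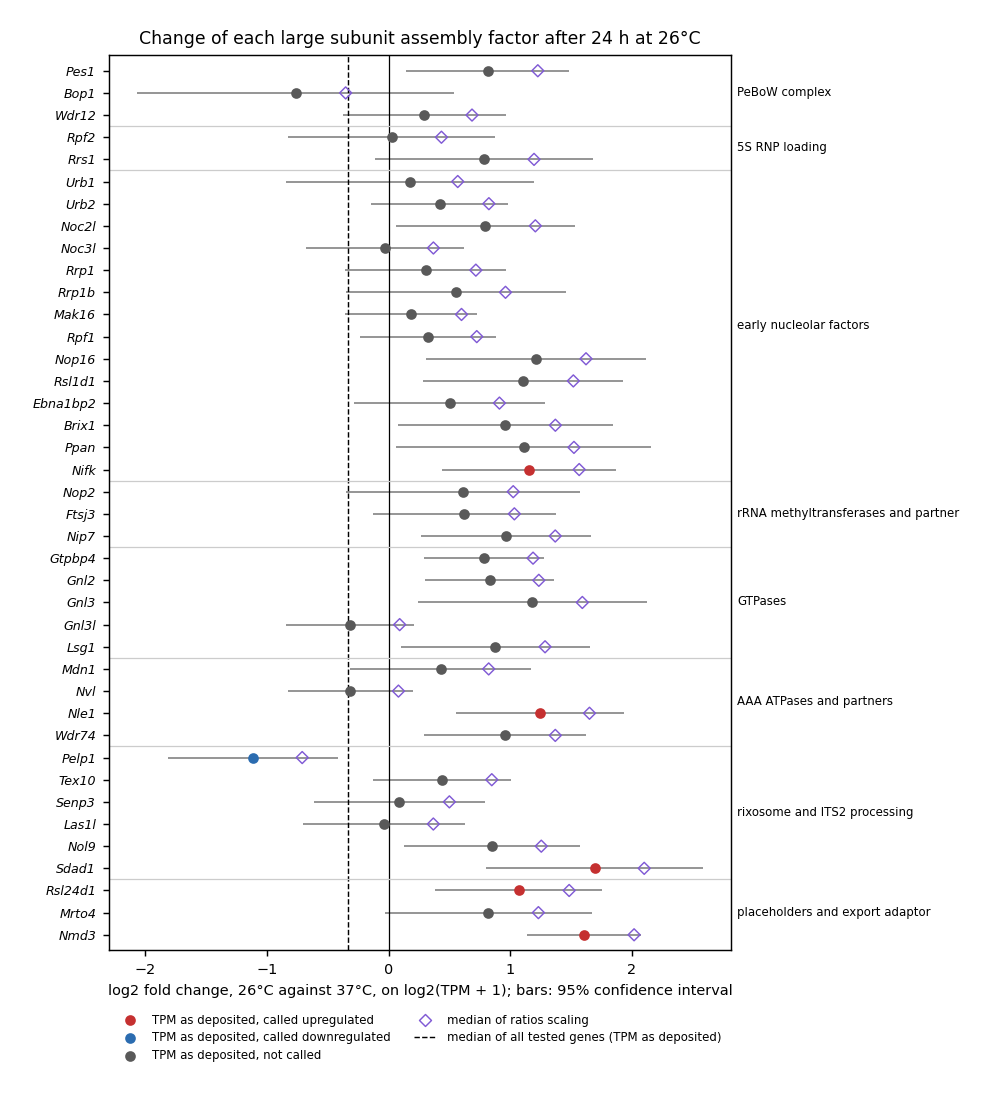
Log2 fold change of each assembly factor at 26°C against 37°C from limma on log2(TPM + 1), with TPM as deposited (filled circles with 95% confidence intervals, red where called upregulated, blue where called downregulated) and after median of ratios scaling (open diamonds); the dashed line marks the median of all tested genes at -0.34. Nearly all genes lie to the right of the dashed line, and the diamonds lie to the right of the circles throughout.

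The sequences just upstream of 4 genes are shown because these 4 of the 6 called genes, 3 upregulated and 1 downregulated, hold CACGTG near their start. The sequences are from RefSeq on GRCm38.p6, an older build than the GRCm39 used by the authors, and run from 250 bases before the start site to 30 bases from it, on the strand of the gene, with CACGTG in capitals. They lie at chr3:69721805-69722084 on the plus strand for Nmd3, and on the minus strand at chr5:92309995-92310274 for Sdad1, chr11:82908366-82908645 for Nle1 and chr11:70410002-70410281 for Pelp1.
Nmd3: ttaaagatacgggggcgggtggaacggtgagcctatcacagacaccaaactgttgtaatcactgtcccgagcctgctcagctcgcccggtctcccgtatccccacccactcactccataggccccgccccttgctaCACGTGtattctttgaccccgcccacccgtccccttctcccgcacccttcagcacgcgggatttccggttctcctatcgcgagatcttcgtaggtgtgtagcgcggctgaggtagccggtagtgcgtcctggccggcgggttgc
Sdad1: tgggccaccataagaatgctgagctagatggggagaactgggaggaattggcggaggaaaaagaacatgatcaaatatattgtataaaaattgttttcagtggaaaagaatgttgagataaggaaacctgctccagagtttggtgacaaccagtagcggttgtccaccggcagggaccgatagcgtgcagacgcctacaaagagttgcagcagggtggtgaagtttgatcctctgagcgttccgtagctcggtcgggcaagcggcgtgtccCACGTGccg
Nle1: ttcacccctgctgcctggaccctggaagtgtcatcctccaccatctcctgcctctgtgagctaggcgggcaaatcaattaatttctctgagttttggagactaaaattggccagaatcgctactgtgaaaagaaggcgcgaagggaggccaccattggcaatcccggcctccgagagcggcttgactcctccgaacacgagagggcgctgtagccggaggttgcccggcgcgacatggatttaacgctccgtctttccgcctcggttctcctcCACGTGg
Pelp1: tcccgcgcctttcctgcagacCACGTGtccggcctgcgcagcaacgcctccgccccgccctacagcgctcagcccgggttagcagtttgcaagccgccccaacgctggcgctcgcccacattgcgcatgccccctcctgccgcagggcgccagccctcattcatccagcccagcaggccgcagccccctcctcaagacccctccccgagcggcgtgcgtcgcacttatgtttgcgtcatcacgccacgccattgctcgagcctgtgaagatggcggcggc
In Nmd3 the motif began at position -114 from the start site and in Pelp1 at -229, whereas it began at position 22 in Sdad1 and at position 24 in Nle1, counted from 1 at the first transcribed base. CACGTG reads the same on both strands. In windows from 250 bases before to 50 bases after the start, it was found in 9 of the 34 assembly factors in the RefSeq table (26.5%) and in 2187 of all 27025 genes there (8.09%). The other genes with it were Mdn1, Tex10, Nop2, Rpf2 and Pes1. The 9 genes with the motif had a median log2 fold change of 0.61, from -1.12 to 1.69, and the 25 without it had a median of 0.80. Both the highest and the lowest change of the 40 genes thus belonged to genes that hold it. Nifk and Rsl24d1 were called upregulated and did not hold these letters in this window.

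The export adaptor and both placeholders were higher at 26°C without overlap. Nmd3, the adaptor that links the particle to the export receptor, lies on chromosome 3 (69629354 to 69656380, GRCm39). It had 74.4, 73.6 and 80.5 TPM in non-acclimated replicates 1, 2 and 3, and 256, 233 and 214 TPM in cold-acclimated replicates. Both groups were tight and far apart. This was a log2 fold change of 1.61 ± 0.20 (SE, adjusted p = 0.00697 in limma), with 1.77, 1.65 and 1.40 in the single replicates. Nmd3 was the only assembly factor called under every alternative that was run.

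Rsl24d1, on chromosome 9 (73020751 to 73030615), holds the place of the ribosomal protein Rpl24 until the cytoplasmic steps. It had 117, 179 and 246 TPM at 37°C and 364, 364 and 366 TPM at 26°C. The non-acclimated values differed by more than 2-fold, and the cold-acclimated values were nearly identical. Its log2 fold change was 1.07 ± 0.29 (adjusted p = 0.0408 in limma). Mrto4, which holds the place of the stalk protein Rplp0, had 44.9, 78.1 and 127 TPM at 37°C and 134, 132 and 142 TPM at 26°C. Again the cold-acclimated libraries were close together and the non-acclimated libraries were widely spread. The change of Mrto4 was 0.82 ± 0.37 (adjusted p = 0.144 in limma), and 1.23 after median of ratios scaling (adjusted p = 0.0492 in limma).

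Among the 6 genes of the rixosome and of ITS2 processing the changes went in opposite directions. Pelp1, Tex10 and Senp3 form the core of the rixosome, with Las1l, the endonuclease that cuts ITS2, and Nol9, the kinase that acts on the cut RNA. Sdad1 is the counterpart of yeast Sda1, which joins the same particles. Pelp1, on chromosome 11 (70283709 to 70300862), had 47.2, 73.6 and 77.4 TPM at 37°C and 22.4, 28.8 and 38.7 TPM at 26°C. All cold-acclimated values were below all non-acclimated values. Its log2 fold change was -1.12 ± 0.30 (adjusted p = 0.0389 in limma) and, after median of ratios scaling, -0.71 (adjusted p = 0.0993 in limma), which no longer passed.

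Sdad1, on chromosome 5 (92431869 to 92457883), had 26.6, 49.5 and 79.6 TPM at 37°C and 146, 175 and 146 TPM at 26°C. It had the largest log2 fold change of the 40 genes, 1.69 ± 0.38 (adjusted p = 0.023 in limma), with 2.41, 1.80 and 0.86 in replicates 1, 2 and 3. Nol9 had 27.7, 45.3 and 60.0 TPM at 37°C and 76.1, 86.7 and 68.8 TPM at 26°C. These groups did not overlap, although replicate 3 differed little between the conditions. For Nol9 the change was 0.85 ± 0.31 (adjusted p = 0.0886 in limma), and 1.25 after median of ratios scaling (adjusted p = 0.0334 in limma). Tex10, Senp3 and Las1l had log2 fold changes of 0.44, 0.087 and -0.040, and none of them passed the test with TPM as deposited.

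Of the 4 AAA ATPases and their partners, Nle1 was called. Mdn1 is the giant ATPase that pulls Nle1 off the particle, and Nvl is the ATPase that releases Wdr74. Nle1, on chromosome 11 (82791594 to 82799272), had 32.3, 43.4 and 51.2 TPM at 37°C and 118, 119 and 70.7 TPM at 26°C. The cold-acclimated library of replicate 3 was the lowest of its group and still above every non-acclimated library. Nle1 changed by 1.24 ± 0.30 on the log2 scale (adjusted p = 0.0273 in limma). Wdr74 had 60.8, 73.5 and 107 TPM at 37°C and 194, 135 and 137 TPM at 26°C, without overlap (0.96 ± 0.29, adjusted p = 0.0514 in limma, and 1.37, adjusted p = 0.0232, after median of ratios scaling).

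The ATPases themselves did not pass the test. Nvl had 20.8, 21.0 and 25.1 TPM at 37°C and 16.8, 17.1 and 19.0 TPM at 26°C. The cold-acclimated values were the lower ones in each replicate, but the log2 fold change of -0.31 ± 0.22 (adjusted p = 0.343 in limma) became 0.081 after median of ratios scaling. Mdn1 had a log2 fold change of 0.43 with a 95% confidence interval from -0.32 to 1.17.

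The 5 GTPases divided in the same way, with 4 higher at 26°C without overlap and 1 lower. Gtpbp4, which acts in the nucleolus, had 24.5, 28.0 and 29.2 TPM at 37°C and 46.4, 44.9 and 51.3 TPM at 26°C. Gnl2, which acts on later nuclear particles, had 31.8, 29.5 and 37.0 TPM at 37°C and 65.8, 49.7 and 62.0 TPM at 26°C. Both genes were tight within each condition and rose in each replicate. Their log2 fold changes were 0.78 ± 0.21 for Gtpbp4 (adjusted p = 0.0382 in limma) and 0.83 ± 0.23 for Gnl2 (adjusted p = 0.04 in limma), which passed the p threshold but not the fold threshold.

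Gnl3 (nucleostemin) had 63.3, 119 and 206 TPM at 37°C and 246, 262 and 285 TPM at 26°C. Lsg1, the cytoplasmic GTPase that releases Nmd3, had 33.1, 41.7 and 77.7 TPM at 37°C and 81.8, 82.2 and 102 TPM at 26°C. In both genes the non-acclimated library of replicate 3 came close to the cold-acclimated values. The changes were 1.18 ± 0.40 for Gnl3 (adjusted p = 0.0749 in limma) and 0.88 ± 0.33 for Lsg1 (adjusted p = 0.098 in limma). After median of ratios scaling they were 1.59 and 1.29, with adjusted p of 0.0334 and 0.0339 in limma. With the replicate number as a block Gnl3 was called also on TPM as deposited (adjusted p = 0.0234 in limma). Gnl3l, the paralogue of Gnl3, had 52.0, 69.7 and 61.1 TPM at 37°C and 42.2, 51.9 and 51.7 TPM at 26°C, slightly lower without overlap. For Gnl3l the change was -0.32 ± 0.22 (adjusted p = 0.347 in limma), and 0.091 after median of ratios scaling.

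The early nucleolar factors were the largest group, with 14 genes. The log2 fold change was above 0 in 13 of them with TPM as deposited, and all 14 lay above the median of all tested genes. Nifk, a nucleolar protein that binds the proliferation antigen Ki-67, lies on chromosome 1 (118249573 to 118261561). It had 84.6, 110 and 173 TPM at 37°C and 267, 220 and 307 TPM at 26°C, with no overlap and a change of 1.15 ± 0.31 (adjusted p = 0.0368 in limma). Nop16 had 49.3, 74.4 and 150 TPM at 37°C and 195, 177 and 202 TPM at 26°C. Rsl1d1, the most abundant of the 40 genes by mean TPM, had 166, 284 and 416 TPM at 37°C and 516, 541 and 703 TPM at 26°C. Both were higher in every cold-acclimated library than in any non-acclimated library. Their changes were 1.21 ± 0.39 for Nop16 and 1.10 ± 0.35 for Rsl1d1, each with an adjusted p of 0.0625 in limma. With the replicate number as a block both were called, with adjusted p of 0.0236 and 0.0135 in limma.

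Brix1, which binds the precursor rRNA, had 50.3, 84.4 and 129 TPM at 37°C and 130, 145 and 218 TPM at 26°C. Noc2l, a partner of Noc3l in early particles, had 45.7, 61.5 and 103 TPM at 37°C and 123, 115 and 110 TPM at 26°C. The non-acclimated library of replicate 3 nearly reached the lowest cold-acclimated library in both genes. The changes were 0.96 ± 0.38 for Brix1 and 0.80 ± 0.31 for Noc2l, each with an adjusted p of 0.107 in limma, and 1.37 and 1.21 after median of ratios scaling, with adjusted p of 0.0363 and 0.0378 in limma. Noc3l had 19.1, 19.9 and 31.8 TPM at 37°C and 26.1, 19.1 and 22.7 TPM at 26°C, so the groups overlapped. For Noc3l the change was -0.029 ± 0.28 (adjusted p = 0.954 in limma), and 0.37 after median of ratios scaling. The other 8 early factors had log2 fold changes from 0.17 for Urb1 to 1.11 for Ppan, and none of them was called in either fit, although Ppan was called upregulated without replicate 3 in both conditions, and Ppan and Rrp1b without its non-acclimated library alone.

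For the PeBoW complex, which is needed to process the precursor of the 28S and 5.8S rRNA, the 3 subunits differed. Pes1 had 85.8, 131 and 176 TPM at 37°C and 229, 216 and 220 TPM at 26°C. Bop1 had 82.9, 136 and 290 TPM at 37°C and 77.6, 50.3 and 168 TPM at 26°C. Pes1 was higher at 26°C without overlap, whereas Bop1 was lower in each replicate, with groups that overlapped. The log2 fold change was 0.81 ± 0.29 for Pes1 (adjusted p = 0.0818 in limma), and 1.23 after median of ratios scaling (adjusted p = 0.0275 in limma). For Bop1 it was -0.76 ± 0.56 (adjusted p = 0.362 in limma), the largest standard error of the 40 genes. Wdr12, the third subunit, had a log2 fold change of 0.29 with a 95% confidence interval from -0.38 to 0.96.

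Rpf2 and Rrs1 together load the 5S particle, and neither passed the test with all 6 libraries. Rpf2 had 45.4, 64.6 and 92.2 TPM at 37°C and 71.6, 43.4 and 91.9 TPM at 26°C, and Rrs1 had 56.2, 108 and 162 TPM at 37°C and 189, 189 and 143 TPM at 26°C. The conditions overlapped in both genes. The changes were 0.026 ± 0.37 for Rpf2 (adjusted p = 0.97 in limma) and 0.78 ± 0.39 for Rrs1 (adjusted p = 0.18 in limma). Without replicate 3 in both conditions Rrs1 was called upregulated, at 1.27 (adjusted p = 0.0351 in limma). In the group of rRNA methyltransferases, Nip7, which works with the methyltransferase Ftsj3, had 33.2, 46.4 and 67.6 TPM at 37°C and 110, 85.8 and 84.1 TPM at 26°C, without overlap. Its change was 0.96 ± 0.30 (adjusted p = 0.0579 in limma), and 1.37 after median of ratios scaling (adjusted p = 0.025 in limma). The methyltransferase Nop2 had 60.5, 124 and 156 TPM at 37°C and 223, 173 and 110 TPM at 26°C, with opposite directions in replicates 1 and 3 (0.61 ± 0.41, adjusted p = 0.322 in limma). Ftsj3 had a log2 fold change of 0.62 with a 95% confidence interval from -0.13 to 1.37.

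The pattern that ran through these values was a wide spread at 37°C and a narrow spread at 26°C. The median coefficient of variation of the 40 genes was 35.5% at 37°C and 14.0% at 26°C, compared with 25.0% and 29.8% over all tested genes. The log2 range of the 3 libraries was narrower at 26°C in 35 of 40 genes, against 46.6% of all tested genes, and in 36 of 40 after median of ratios scaling, against 45.3%. At 37°C, replicate 3 was the highest library for 38 of 40 genes, against 39.5% of all tested genes, and replicate 1 the lowest for 37 of 40, against 40.9%. This order was not particular to the 40 genes. Replicate 3 was highest for 37 and replicate 1 lowest for 41 of the 44 small subunit assembly genes. Among the 38 other large subunit assembly genes the numbers were 26 and 32, and among the 47 large subunit ribosomal proteins 7 and 3. Narrowing was also seen in the 44 small subunit assembly genes, from 29.2% to 13.4%. It was weaker in the 38 other large subunit assembly genes, from 27.1% to 18.9%. Of these 38, 29 had a narrower log2 range at 26°C, and 25 after median of ratios scaling. The 47 large subunit ribosomal proteins, at 25.3% and 28.7%, did not show it. These differences in spread were not tested.

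The size of the change therefore differed between replicates. The median log2 fold change of the 40 genes was 1.23, 0.69 and 0.11 in replicates 1, 2 and 3, and 1.55, 1.13 and 0.35 relative to all tested genes in the same replicate. The number of genes higher at 26°C was 36, 30 and 23, against 35.7%, 32.0% and 35.4% of all tested genes. Other assembly lists showed the same order, with medians of 0.92, 0.43 and 0.16 for the other large subunit assembly genes. The small subunit assembly genes had medians of 0.85, 0.29 and -0.069, and the large subunit ribosomal proteins 0.26, 0.71 and 0.064. Replicate 3, which alone carried Cd4, thus had the smallest change, and a pair of libraries by itself gives no test. Without replicate 3 in both conditions, a fit added after the data had been seen, limma called 18 of the 40 genes upregulated, against 5.34% of all tested genes, and 1 downregulated, against 25.3%. The relative median in that fit was 1.32. Leaving out the non-acclimated library of replicate 3 alone also gave 18 upregulated, against 3.23%, and 0 downregulated, against 14.9%. Without the cold-acclimated library of replicate 3, 4 were called upregulated (Nle1, Nmd3, Sdad1 and Wdr74), against 3.75%, and Pelp1 downregulated, against 22.3%. When any 1 of the 4 libraries of replicates 1 and 2 was left out, only Nmd3 was called. The background was then 0.638% upregulated and 4.31% downregulated without non-acclimated replicate 1, and 0.483% and 2.82% without non-acclimated replicate 2. Omitting cold-acclimated replicate 1 made it 0.589% and 3.68%, and omitting cold-acclimated replicate 2 made it 0.638% and 4.91%.

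**Figure D3:**
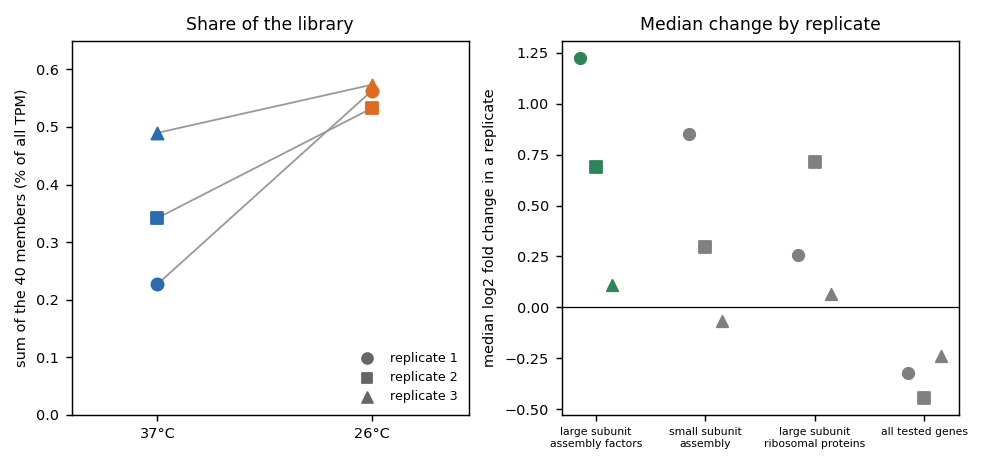
Left, sum of the 40 assembly factors as a percent of all TPM in each library, with lines joining the libraries of a replicate; right, median log2 fold change of 4 gene groups in each replicate (circle, square and triangle for replicates 1, 2 and 3). The 37°C sums run from 0.227% to 0.490% and the 26°C sums from 0.533% to 0.574%, and the median change of the assembly factors is 1.23, 0.69 and 0.11 in the 3 replicates.

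Because partners or paralogues are measured in the same library, the ratio of their TPM does not depend on how the library was scaled. Of 12 such ratios, chosen after the values had been seen and given without a test, 8 were higher at 26°C without overlap and 4 overlapped. The choice partly fixed the direction, as Sdad1 to Pelp1 sets the highest log2 fold change of the assembly factors (1.69) against the lowest (-1.12). The ratios of Sdad1, Tex10 and Senp3 all divide by Pelp1 and so share its lower values at 26°C. Pes1 to Bop1, Noc2l to Noc3l, Nol9 to Las1l and Gnl3 to Gnl3l also divide by a gene with a negative log2 fold change. These ratios thus partly restate the changes given above. No share over other pairs of genes was counted, so the 8 of 12 cannot show that such pairs are unusual. Sdad1 to Pelp1 was 0.565, 0.672 and 1.03 at 37°C and 6.53, 6.07 and 3.77 at 26°C. Sdad1 was thus at about the level of Pelp1 or below in the 37°C libraries and several times above it in the 26°C libraries. Nol9 to Las1l, the kinase and the nuclease of ITS2 processing, was 0.704, 0.726 and 0.854 at 37°C and 1.63, 1.67 and 1.05 at 26°C, so that Nol9 exceeded Las1l in the cold-acclimated libraries. Pes1 to Bop1 was 1.03, 0.966 and 0.606 at 37°C and 2.94, 4.30 and 1.31 at 26°C. The paralogues Gnl3 and Gnl3l had a ratio of 1.22, 1.71 and 3.37 at 37°C and 5.83, 5.06 and 5.50 at 26°C, with the cold-acclimated libraries again close together. The ratios Rrp1b to Rrp1, Urb2 to Urb1, Wdr12 to Bop1 and Rpf2 to Rrs1 overlapped between the conditions.

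**Figure D4:**
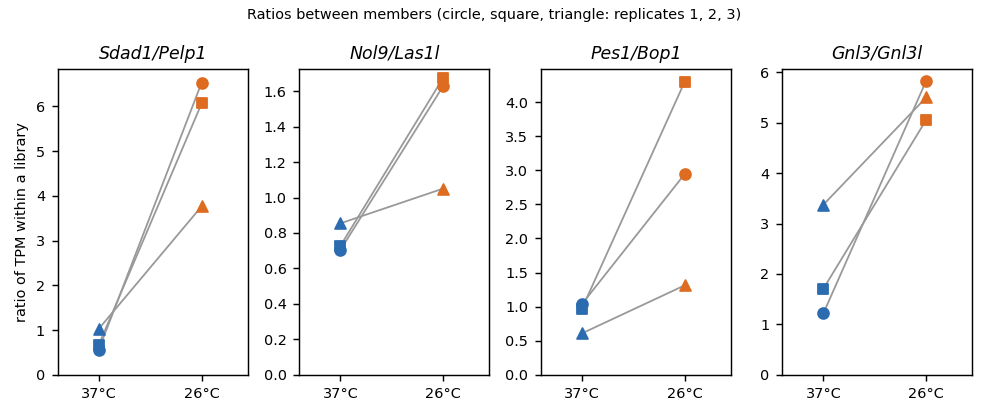
Ratio of TPM between partners or paralogues within each library, for Sdad1 to Pelp1, Nol9 to Las1l, Pes1 to Bop1 and Gnl3 to Gnl3l; lines join the libraries of a replicate (circle, square and triangle for replicates 1, 2 and 3). All 3 values at 26°C lie above all 3 at 37°C in each panel, and the step is smallest in replicate 3.

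Other lists of ribosome genes were compared by the same counts, against 2.63% of all tested genes called upregulated and 16.0% downregulated. Of 38 other large subunit assembly genes, limma called 4 upregulated (Surf6, Afg2a, Ddx54 and Tma16) and 1 downregulated (Dusp12), with a median log2 fold change 0.86 above all tested genes. Tma16, a factor of late large subunit particles, had 26.4, 46.9 and 51.4 TPM at 37°C and 167, 180 and 106 TPM at 26°C (1.85 ± 0.33, adjusted p = 0.0128 in limma). Dusp12, the counterpart of the yeast phosphatase that releases Mrt4, had 47.7, 62.9 and 60.2 TPM at 37°C and 24.4, 16.5 and 26.7 TPM at 26°C. Dusp12 fell without overlap (-1.32 ± 0.26, adjusted p = 0.0171 in limma), whereas the values of Mrto4, the mouse Mrt4, were all higher. Among the 44 small subunit assembly genes, 6 were called upregulated and 1 downregulated, with a median 0.74 above all tested genes. Their smallest p belonged to Wdr43 (1.43 ± 0.23, adjusted p = 0.00956 in limma) and Riok1 (1.02 ± 0.22, adjusted p = 0.0198 in limma). Of the 47 large subunit ribosomal proteins, the proteins that these factors put in place, limma called 0 in either direction, with 1 higher and 0 lower at an unadjusted p under 0.05 and a median 0.65 above all tested genes. Rpl34 and Rpl11 had the smallest p there (0.84 ± 0.31 and 0.62 ± 0.28, adjusted p = 0.0907 and 0.143 in limma). After median of ratios scaling the upregulated numbers were 14, 14 and 1 (36.8%, 31.8% and 2.13% of each list), against 6.87% of all tested genes, and none was downregulated, against 8.60%. Block and scaling together gave 16, 15 and 6 upregulated, against 9.23%, and 0, 1 and 0 downregulated, against 12.4%. At an unadjusted p under 0.05 in limma, 16 of the 47 ribosomal proteins were higher after scaling, against 18.6% of all tested genes. With block and scaling 35 of them were higher, against 24.7%, and 0 were lower in either fit. With TPM as deposited all 47 lay above the median of all tested genes. The order of the list medians was not fixed, since without non-acclimated replicate 1 the ribosomal proteins lay 0.91 and the 40 genes 0.71 above all tested genes. Whether the lists differ from one another was not tested.

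The 40 genes lay on 16 chromosomes, and 39 of them, all but Lsg1, carry the cellular component term nucleolus in the deposited annotation, against 9.27% of the 10628 tested genes with such a term. This share follows from the choice of the genes as assembly factors and is no result of these data. The 985 tested genes with this term, which include the 39, had a median log2 fold change of 0.025, which is 0.36 above all tested genes. The upregulated share was 6.19%, against 2.63% of all tested genes, and the downregulated share was 10.9%, against 16.0%. In 25 of the 40 genes no other listed gene overlapped. Ppan and Gnl3 contain 5 snoRNA genes, of which Snord69 and Snord19 in Gnl3 and Gm24067 in Ppan were themselves higher at 26°C. Snord69 (59 bases) had 14.8, 22.7 and 56.4 TPM at 37°C and 208, 337 and 154 TPM at 26°C (3.00 on the log2 scale, adjusted p = 0.0109 in limma). At 37°C, Snord19 (54 bases) had 2.70, 9.01 and 4.62 TPM, and Gm24067 (85 bases) had 6.86, 1.43 and 11.7 TPM. In genes this short, values of this size rest on few reads, as do those of Snord69 in replicates 1 and 2 at 37°C. The libraries were made from poly(A)+ RNA, and whether they capture snoRNA was not tested. Where a snoRNA gene overlaps its host, the counting may not separate their reads, so the snoRNA values are uncertain. Noc2l overlaps Gm52691 on the opposite strand, and Gm52691 was higher at 26°C too (1.20, adjusted p = 0.0374 in limma). Tex10 overlaps Invs by 1152 bases on the opposite strand, and Invs was lower at 26°C (-1.94, adjusted p = 0.00749 in limma). The strand setting of the authors' counting is not given in the sources used here, and the reads of either pair may not be separated.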

How the data were processed

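The 40 genes, the comparison lists and the tests were chosen with earlier results of these data known. Per the labels and methods, the authors trimmed reads with Trimmomatic 0.38, aligned them to GRCm39 with HISAT2 2.1.0 and counted them per gene with featureCounts 1.6.3, and the deposited values are TPM. The sources used here give neither the annotation release nor the strand setting. The authors tested counts with DESeq2. Because the deposited table holds TPM, limma 3.58.1 in R 4.3.3 was run here with its mean-variance trend on log2(TPM + 1) of genes with a mean of at least 1 TPM. A fold change on this scale understates the change of genes with low TPM. Reads recovered from the TPM were whole within 1e-06 for all 21195 genes above 0 and served for a voom fit. Other steps used Python 3.11.15. Members named in full passed both thresholds in either scaling or had the smallest p or the lowest fold change of their role, and the other lists are represented by their 2 smallest p. Over all tested genes, deviations from the condition means correlated at 0.48, 0.50 and 0.51 between libraries of the same replicate number. They correlated at -0.41 to 0.02 otherwise, so over all tested genes the numbers pair the libraries. Over the 40 genes alone the correlations were 0.063, 0.43 and 0.13 for the same number and -0.26 to 0.084 otherwise. For the 40 genes the pairing was thus less clear. The study prepared the 3 replicates of a condition independently. The procedure was run on simulated reads with known changes. These held no differences between replicates and no shift of the median of all genes. They cannot show how such differences affect the calls made here.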

Additional observations from a re-analysis of the deposited data

How the results depend on the processing

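A pseudocount of 0.1 and a minimum of 5 TPM left all called assembly factors as they were. Without a filter on low values limma called 184 genes upregulated, 1121 downregulated, and 1 and 0 assembly factors (Nmd3 only, with 17 higher and 1 lower at an unadjusted p under 0.05). After median of ratios scaling the numbers were 840 and 1052 genes and 18 and 0 assembly factors, with the replicate block and this scaling 1129 upregulated genes and 19 and 0 assembly factors, and with voom on recovered reads 767 and 1122 genes and 17 and 0 assembly factors. The replicate block on TPM as deposited called 8 assembly factors upregulated, adding Gnl3, Nop16 and Rsl1d1. Without replicate 3 in both conditions, a choice made after seeing the data, 653 and 3088 genes and 18 assembly factors upregulated were called. Leaving out 1 library gave 59 to 459 upregulated and 345 to 2725 downregulated genes, and 1 to 18 and 0 to 1 assembly factors. The log2 fold change turned positive for Noc3l, Gnl3l and Nvl, at 0.37, 0.091 and 0.081 after median of ratios scaling with or without the replicate block, and at 0.35, 0.076 and 0.069 with voom. Noc3l was 0.19 without replicate 3 in both conditions. With 1 library left out it ran from -0.16 to 0.20 for Noc3l and from -0.23 to 0.32 for Rpf2. The relative median of the 40 genes stayed above 0 in each of these fits, from 0.71 to 1.32. The causes were not tested. With 3 libraries a condition, a p above the threshold does not show that a gene kept its level.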
